A study of Rattus norvegicus with 6 samples.

Results

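Receptor-type protein tyrosine phosphatases (RPTPs) are transmembrane enzymes that remove phosphate from tyrosine residues and so oppose tyrosine kinases. The genes described here are 10 RPTPs of the rat, namely Ptpru, Ptprk and Ptprm (subtype R2B), Ptprf, Ptprs and Ptprd (subtype R2A, the LAR family), Ptpra and Ptpre (subtype R4), Ptprj (subtype R3) and Ptprg (subtype R5). They were read by gene symbol from a table of 18930 genes, in which 9 of the 10 had a row. No row carried the symbol Ptprk, so Ptprk was not analysed here. The family was chosen by the values of Ptpru, whose fall with STZ had already been seen among the largest in these same samples, so the values of its members for STZ against Control are a description and support no test.

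RNA was taken from NRK-52E, an established, wild-type rat kidney epithelial line. STZ (streptozotocin) is a nitrosourea carrying a glucosamine moiety, and it alkylates DNA. The comparison was between 3 samples treated with STZ at 10 mM for 24 h (STZ) and 3 samples given vehicle (Control), and it asks how the treated line differs in transcript abundance. All samples came from 1 line grown in culture, and neither the labels nor the methods say whether the replicates were separate cultures, so the errors given are the spread between these samples. In bulk RNA, fewer cells with a transcript and less of it per cell cannot be told apart.

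The extracellular parts of RPTPs differ by subtype. Those of R2B carry a MAM domain and bind the same protein on a neighbouring cell, those of the LAR family bind heparan sulfate proteoglycans, and R5 members carry a carbonic anhydrase-like domain. Most RPTPs hold a pair of intracellular phosphatase domains, of which the one nearer the membrane is usually the active one, whereas Ptprj has a single domain and that of Ptpru is regarded as a pseudophosphatase. In epithelia, cadherins, catenins, growth factor receptors and Src family kinases are among their known substrates.

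The bases upstream of the start site are shown for the pair of genes that differed most between the groups, Ptpru and Ptpre, for Ptprj, and for Ptprs, which has a motif in common with Ptpru. These are RefSeq sequences of the GRCr8 build, 250 bases directly before the start that the RefSeq promoter table gives, and such a window was found for 9 of the 10 genes. That start need not be the outermost of a gene: the windows of Ptpru, Ptprs, Ptprj and Ptpre reach 24, 70, 46 and 3 bases into the annotated span of the gene, and those of Ptprf and Ptprm and 1 of the 2 of Ptprd lie wholly within the span. Capitals mark a match to the GC box (GGGCGG), to the CCAAT box, to the AP-1 site (TGACTCA), to the cyclic AMP response element (TGACGTCA) or to the p53 half-site. Each was searched on both strands, and neighbouring matches may overlap.

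Ptpru, chr5:149308834-149309083 (minus strand): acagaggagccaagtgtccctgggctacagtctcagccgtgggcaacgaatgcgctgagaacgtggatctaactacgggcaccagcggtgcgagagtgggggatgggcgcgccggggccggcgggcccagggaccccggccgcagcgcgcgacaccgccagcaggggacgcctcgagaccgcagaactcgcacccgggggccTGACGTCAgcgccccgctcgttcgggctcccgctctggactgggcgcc

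Ptprs, chr9:1394092-1394341 (minus strand): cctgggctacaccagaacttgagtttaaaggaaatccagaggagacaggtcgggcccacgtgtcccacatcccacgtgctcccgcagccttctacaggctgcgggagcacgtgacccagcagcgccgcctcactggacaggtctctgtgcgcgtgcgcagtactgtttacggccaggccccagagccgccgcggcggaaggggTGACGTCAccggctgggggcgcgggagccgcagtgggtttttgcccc

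Ptprj, chr3:97017657-97017906 (minus strand): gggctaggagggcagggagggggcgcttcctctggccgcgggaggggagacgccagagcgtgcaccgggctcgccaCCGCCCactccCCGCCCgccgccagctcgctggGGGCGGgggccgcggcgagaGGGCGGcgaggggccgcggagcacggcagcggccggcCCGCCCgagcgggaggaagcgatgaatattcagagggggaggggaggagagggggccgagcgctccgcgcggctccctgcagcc

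Ptpre, chr1:199773948-199774197 (plus strand): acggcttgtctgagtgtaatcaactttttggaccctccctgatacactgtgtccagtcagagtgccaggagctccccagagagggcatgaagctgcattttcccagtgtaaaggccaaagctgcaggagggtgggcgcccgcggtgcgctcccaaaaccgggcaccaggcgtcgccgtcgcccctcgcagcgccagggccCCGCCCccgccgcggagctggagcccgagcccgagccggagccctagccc

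The TGACGTCA motif, added to the search after the sequences had been read, was found in the windows of Ptpru and Ptprs and in those of none of the other members, and 1.59% of the 33469 windows of the same length hold it. GC boxes numbered 5 in the window of Ptprj, 5 in 1 of the 2 windows of Ptprd and 1 each in those of Ptpre and Ptprf, with none in those of the other members, and 30.5% of all windows hold at least 1. The p53 half-site, which 6.64% of all windows hold, and the AP-1 site, which 4.05% hold, were in no window of the members. CCAAT was found in the windows of Ptprf and Ptpra, against 34% of all windows. These matches describe letters in a short window only, and binding was not measured.

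The libraries held 10430924 to 12737131 counted reads in Control and 13921413, 11658253 and 15191349 in STZ replicates 1, 2 and 3. The epithelial keratin gene Krt8 had 11691 to 24040 reads in every sample, while markers of the proximal tubule differed widely. Lrp2, Slc34a1, Slc5a2 and Slc2a2 had 0 to 7 reads and Cubn 4 to 10, whereas Aqp1 had 66 to 167 and Ggt1 451 to 1220. Of 19 epithelial and tubule markers, 5 were tested, of which Krt8 and Ggt1 (log2 fold changes 0.48 and 0.73) were among 3 called higher, and Aqp1 (-1.25) and Cdh1 (-0.69) were lower. Over all genes tested, 25.9% were called higher and 25.1% lower. Of 14 markers of other cells, 3 had no row in the table, 7 stayed under 10 reads in every sample, and Ptprc, which encodes the RPTP CD45 of leukocytes, had at most 1 read. The summed level of these markers was 81.6 to 91.9 CPM (reads scaled to a common library total) in Control and 69.1 to 78.7 in STZ, with Acta2 (-0.21) and Col1a1 (-0.27) called lower. Nphs1, a podocyte gene that did not pass the filter, had 3, 3 and 4 reads in Control and 11, 15 and 25 in STZ. The endothelial gene Kdr had 0 to 2 and 6 to 9, and both were called higher when no filter was used. Nphs1 was also called higher without Control replicate 1, 2 or 3 and without STZ replicate 1 or 2. The epithelial marker Cldn4, at 0 reads in Control and 3 to 4 in STZ, was called higher with no filter as well. The part of the markers of other cells in the results was not tested. The call of Cdh1 was lost with DESeq2's Wald test and without Control replicate 1 or 3 or STZ replicate 1 or 3, that of Acta2 without Control replicate 3, and that of Col1a1 without Control replicate 3 or STZ replicate 3.

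Single members of the family moved in opposite directions with STZ, while the summed level of the 9 genes overlapped between the groups. The sum was 1117, 1083 and 1118 CPM in Control and 1100, 1112 and 1081 CPM in STZ. CPM values here were scaled by TMM, a method that corrects for differences in library composition. By the quasi-likelihood test of edgeR, Benjamini-Hochberg adjusted over 11870 genes, and at an adjusted p-value under 0.05, 3 members were called higher in STZ (Ptpre, Ptprj and Ptprf), 3 lower (Ptpru, Ptprd and Ptprs) and 3 were not called (Ptprm, Ptpra and Ptprg). Of all genes tested, 25.9% were called higher and 25.1% lower. With an absolute log2 fold change over 1 required as well, Ptpre remained among the higher genes, against 2.26% of all genes, and Ptpru among the lower, against 1.11%. The groups did not overlap in CPM for the 6 called members, 3 higher and 3 lower, and this held for 28.6% of all genes in the higher direction and 27.7% in the lower. Since the members were chosen on this contrast, nothing is read from these counts. The median log2 fold change of the members was -0.03, beside -0.0055 over all genes tested. All 9 members exceeded the filter on low counts in each of the 6 samples.

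**Figure D1:**
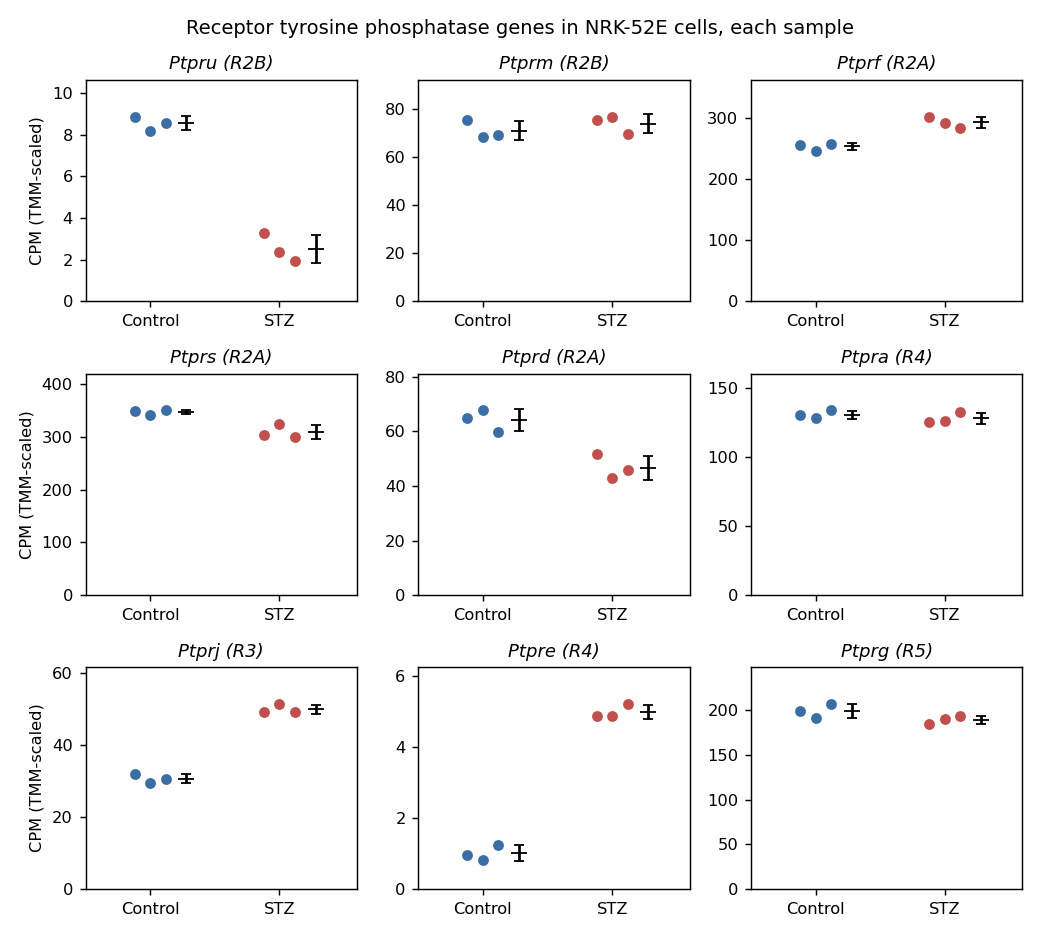
TMM-scaled CPM (vertical axes, each starting at 0) of the 9 RPTP genes in the 3 Control samples (blue) and 3 STZ samples (red), with the group mean and SD in black. Ptpru sits between 8.18 and 8.86 CPM in Control and between 1.94 and 3.27 CPM in STZ, Ptpre goes from a mean of 1.003 to one of 4.98 CPM, and Ptprm, Ptpra and Ptprg overlap between the groups.

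Ptpru, the R2B member that gave the family its interest here, was counted 94, 90 and 110 times in Control replicates 1, 2 and 3 and 45, 27 and 29 times in STZ replicates 1, 2 and 3. Every STZ sample lay below every Control sample although the STZ libraries were mostly the deeper ones. The level was 8.54 ± 0.34 CPM in Control (SD, n = 3) and 2.52 ± 0.68 CPM in STZ (SD, n = 3), which is 0.295 of the Control level. The log2 fold change was -1.76 (standard error 0.18), the 12th largest fall of the 11870 genes tested. Control samples were tightly grouped, with a coefficient of variation of 3.98%, whereas the STZ samples varied by 27.2%, with replicate 1 the highest at 3.27 CPM and replicate 3 the lowest at 1.94 CPM. Without STZ replicate 1 the log2 fold change was -2.0, and without STZ replicate 3 it was -1.58. In the GRCr8 annotation no other gene overlaps Ptpru.

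Ptprm, the homophilic R2B relative of Ptpru, did not follow it. Its reads numbered 800, 753 and 884 in Control and 1037, 883 and 1040 in STZ, or 70.9 ± 3.88 and 73.8 ± 3.90 CPM (SD, n = 3 each). The groups overlapped, the log2 fold change was 0.06, and its 95% interval ran from -0.05 to 0.16. The number of Ptpru reads for each Ptprm read was 0.118, 0.12 and 0.124 in the Control samples and 0.0434, 0.0306 and 0.0279 in the STZ samples. This ratio compares the same pair of genes between samples and says nothing of which protein is the more abundant, because gene lengths were not used here.

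The LAR family members, which share an extracellular part of immunoglobulin and fibronectin repeats, split by direction. Ptprf, which encodes LAR itself, was counted 2717, 2713 and 3314 times in Control and 4165, 3368 and 4268 times in STZ. Its level was 254 ± 6.21 CPM in Control and 293 ± 9.01 CPM in STZ (SD, n = 3 each), and the lowest STZ sample, at 284.8 CPM, was above the highest Control sample, at 258.4 CPM. Ptprs, whose product is a receptor for chondroitin and heparan sulfate proteoglycans, went from 347 ± 4.29 CPM to 309 ± 14.1 CPM (SD, n = 3 each), with every STZ sample below every Control sample. The log2 fold changes were 0.21 for Ptprf and -0.17 for Ptprs, with standard errors of 0.04 for each.

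Ptprd, the third LAR member, had 687, 744 and 768 reads in Control and 709, 494 and 685 in STZ. Before scaling the read numbers overlapped, as the 709 reads of STZ replicate 1 lay above the 687 of Control replicate 1, a smaller library. In CPM they were 64.8, 67.7 and 59.9 in Control and 51.5, 42.9 and 45.7 in STZ, and the groups were separate. The log2 fold change was -0.45 (standard error 0.06). For each Ptprf read there were 0.253 ± 0.0212 Ptprd reads in Control and 0.159 ± 0.0118 in STZ (SD, n = 3 each). The annotated span of Ptprd overlaps 6 other genes, 1 of them protein-coding, and whether the counting used strand is not given, so their reads may be partly mixed.

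The R4 pair, whose members have short, heavily glycosylated extracellular parts and can activate Src family kinases by removing their inhibitory phosphate, showed the largest contrast within a subtype. Ptpra, the widely expressed member, had 131 ± 2.85 CPM in Control and 128 ± 4.17 CPM in STZ (SD, n = 3 each), with overlapping groups, a log2 fold change of -0.03 and a 95% interval from -0.12 to 0.06. Ptpre was counted only 10, 9 and 16 times in Control and 67, 56 and 78 times in STZ. Its level was 1.003 ± 0.22 CPM in Control and 4.98 ± 0.19 CPM in STZ (SD, n = 3 each), a 4.97-fold difference with a log2 fold change of 2.29 (standard error 0.24). It was the 32nd largest rise among the genes tested. The STZ samples differed little among themselves, with a coefficient of variation of 3.90%, whereas the 3 Control samples varied by 22%, at counts where single reads weigh. There were 0.00722, 0.00638 and 0.00932 Ptpre reads for each Ptpra read in the Control samples and 0.0389, 0.0385 and 0.0392 in the STZ samples. A non-coding RNA gene overlaps the span of Ptpre and another that of Ptpra.

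Ptprj, which encodes the R3 phosphatase DEP-1 (CD148), an opponent of growth factor receptors, was counted 339, 324 and 394 times in Control and 677, 592 and 740 times in STZ. Its level was 30.7 ± 1.25 CPM in Control and 50.01 ± 1.24 CPM in STZ (SD, n = 3 each). The groups were far apart relative to these SDs, and the difference was 1.63-fold, with a log2 fold change of 0.70 (standard error 0.06). Ptprg, the R5 member, had 199 ± 7.62 CPM in Control and 189 ± 4.46 CPM in STZ (SD, n = 3 each). Its groups overlapped, its log2 fold change was -0.07 with a 95% interval from -0.15 to 0.01, and it was called lower only when libraries were scaled by their size alone, at -0.11. In the GRCr8 annotation the spans of Ptprm, Ptprf and Ptprg overlap 3, 1 and 2 other genes, and 1 of those at Ptprg is protein-coding. As for Ptprd, reads may be partly mixed. The counts were made on Rnor6, where the overlaps may differ.

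The remaining RPTPs and the cytosolic tyrosine phosphatases were tested in the same fit, in which 25.9% of all genes were called higher and 25.1% lower. They are not members, but their list too was written with earlier results of these data known. Of 11 other RPTPs, 10 had a row and 3 passed the filter, and 2 of these were called higher and 0 lower (0 also at an unadjusted p under 0.05, and by DESeq2 and limma-voom), with a median log2 fold change of 0.39. Ptprv, known in the mouse as a p53 target, had 29, 26 and 26 reads in Control and 117, 112 and 121 in STZ. Every STZ sample exceeded every Control sample, and the mean levels were 2.38 and 8.77 CPM. This is a rise of 1.88 on the log2 scale, with a standard error of 0.18 and an edgeR adjusted p of 5.1e-12. Ptprq, first described in kidney mesangial cells, had 51.4 CPM in Control and 59.0 CPM in STZ, with overlapping groups (log2 fold change 0.21, adjusted p = 0.00434 by the same edgeR test), and was not called without STZ replicate 3. Ptprr, at 9 to 17 reads, was not called, and its log2 fold change of 0.39 (standard error 0.35) is the median given for these 3 genes. Ptprn, Ptprz1, Ptprh, Ptprb, Ptprn2, Ptpro and Ptprc did not pass the filter. Of these, Ptprn, at 1 to 4 reads in Control and 7 to 12 in STZ, was called higher when no filter was used.

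**Figure D2:**
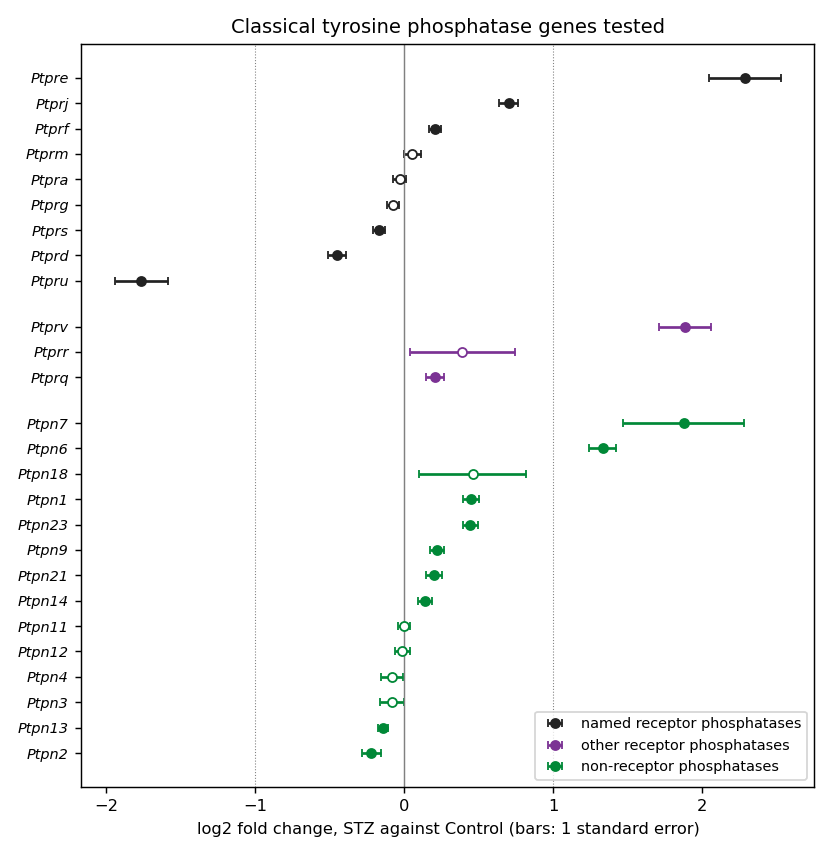
Log2 fold changes (horizontal axis, STZ against Control, bars 1 standard error) of the classical tyrosine phosphatase genes tested, grouped as the 9 RPTPs described (black), 3 other RPTPs (purple) and 14 non-receptor phosphatases (green). Filled points were called at an adjusted p-value under 0.05, and dotted lines mark a log2 fold change of 1 in either direction. Ptpre, at 2.29, is the highest of the RPTPs and Ptpru, at -1.76, is the lowest point in the plot.

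Of 17 non-receptor tyrosine phosphatases, 14 were tested, 7 were called higher, 2 lower and 5 were not called, with a median log2 fold change of 0.17. Among all genes tested the shares were 25.9% higher and 25.1% lower. Ptpn6, which encodes SHP-1, had 117, 110 and 135 reads in Control and 352, 316 and 397 in STZ, a rise of 1.33 on the log2 scale with a standard error of 0.09 (edgeR, adjusted p = 6.2e-16). Ptpn7, also called higher, had 2 to 7 reads in Control and passed the filter on low counts through its 18 to 24 reads in STZ. Ptpn23, an endosomal phosphatase-domain protein, had a log2 fold change of 0.44. Among the lower genes, Ptpn2 had -0.22 and Ptpn13 had -0.14. Ptpn11, which encodes SHP-2, had 218 CPM in both groups.

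Genes that work with RPTPs were grouped as ligands, scaffolds, substrates and processing enzymes. Their calls stand beside shares of 25.9% higher and 25.1% lower over all genes tested. Of 26 genes for ligands, 12 were tested, 1 was called higher (2 without Control replicate 3) and 5 lower, with a median of -0.07. Ptn, which encodes pleiotrophin, a ligand of Ptprz1, had 40, 37 and 38 reads in Control and 12, 5 and 23 in STZ. Ptprz1 itself did not pass the filter. Its STZ samples were all below its Control samples, though they were spread widely (-1.75 on the log2 scale with a standard error of 0.29, edgeR adjusted p = 2.3e-06). The log2 fold change of Ptn was -1.45 without STZ replicate 2 and -2.30 without STZ replicate 3. With at least 10 counts required in every sample, Ptn was not tested. Gpc6, a glypican that carries heparan sulfate, had a log2 fold change of -0.59, and Thbs1, which encodes the Ptprj ligand thrombospondin-1, had 0.18. Of 8 genes for scaffolds that bind LAR phosphatases or their liprins, 6 were tested, 2 called higher and 3 lower. Ppfibp1, a liprin-beta, had a log2 fold change of -0.27, and its paralog Ppfibp2 had 0.27, a call that was lost in 9 of the alternatives. Ppfia3, a liprin-alpha, had -0.95 from 29 to 44 reads in Control and 17 to 23 in STZ, and Cask, a scaffold kinase, had 0.22.

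For the Src list and the cadherin list too, the shares over all genes tested were 25.9% called higher and 25.1% lower. Of 11 genes of the Src family and its regulators, 6 were tested, 2 called higher and 0 lower, with a median of 0.10. By DESeq2 and limma-voom 0 were lower too, and at an unadjusted p under 0.05 by edgeR 1 was lower, Csk. Csk was called lower with the upper quartile, library size only and the replicate block, and without STZ replicate 2. Src itself had 1407, 1297 and 1616 reads in Control and 2627, 2385 and 2889 in STZ. The groups did not overlap, and the rise was 0.65 on the log2 scale with a standard error of 0.05 (edgeR, adjusted p = 6.4e-16). Lyn had 0.26, a call lost with DESeq2 and without STZ replicate 1 or 3, and Csk, which encodes the kinase that places the inhibitory phosphate on Src, had -0.11 and was not called in the fit reported. Of 16 cadherin and catenin genes, 7 were tested, 2 called higher and 3 lower, with a median of -0.01. Cdh3, which encodes P-cadherin, had 657 CPM in Control and 520 CPM in STZ, while Ctnnd1, which encodes p120-catenin, and Jup, which encodes plakoglobin, had log2 fold changes of 0.23 and 0.14. Ctnnb1, which encodes beta-catenin, had -0.12, and was not called without STZ replicate 3. The number of genes called lower in this list fell to 1 without that library.

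Of 12 genes for proteases that cleave RPTPs, 11 were tested, 6 called higher and 4 lower, with a median of 0.16. The shares over all genes tested were 25.9% higher and 25.1% lower. Furin, which cuts R2B and LAR precursors, had a log2 fold change of -0.27, and Adam10, which sheds their extracellular parts, had -0.21. Adam17, a related sheddase, had 0.35, and Psenen, a gamma-secretase subunit, had 0.43. These 4 genes had 41.9 to 757 CPM in Control. Their groups did not overlap, which held for 28.6% of all genes in the higher direction and 27.7% in the lower. As they were named for the smallest p in each direction, nothing is read from this separation.

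**Figure D3:**
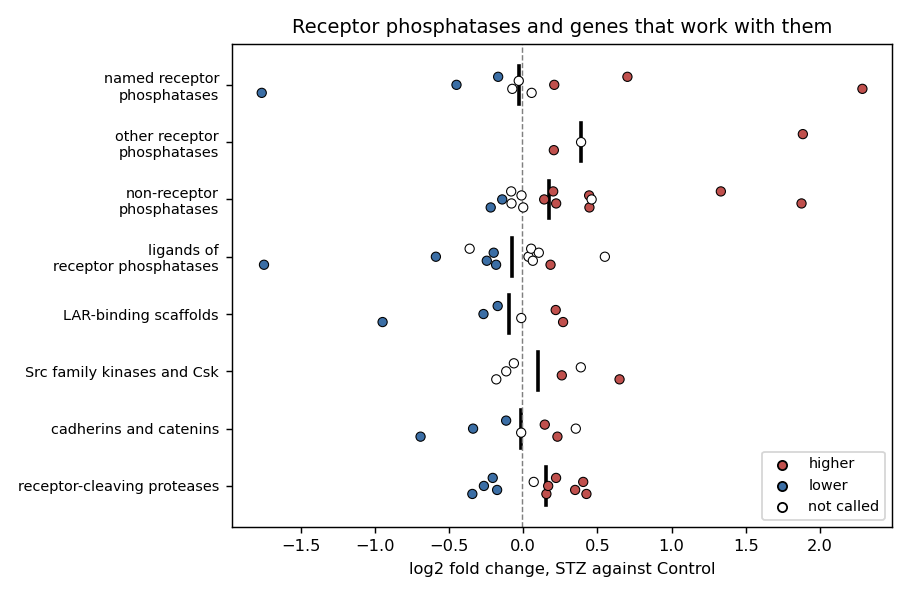
Log2 fold changes (horizontal axis, STZ against Control) of the genes tested in each list, 1 point a gene, red where called higher, blue where called lower and white where not called, with the median of each list as a black bar and that of all genes tested as a dashed line. Medians of the 8 lists plotted run from -0.09 for the LAR-binding scaffolds to 0.39 for the other RPTPs. The latter is the value of Ptprr, 1 of 3 genes tested there, which was not called. Each plotted list but that of the other RPTPs and that of the Src family holds calls in both directions. Over all genes tested, 25.9% were called higher and 25.1% lower.

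The genes nearest to Ptpru in pattern were sought by the root mean square difference of log2 CPM, each gene centred on its own mean over the 6 samples, among 9843 genes with a symbol and 50 or more normalized counts on average. The nearest were Selenbp1 (0.183), Scara5 (0.183), Scd (0.196), B4galnt4 (0.20) and Adamts20 (0.21). Selenbp1, which encodes a selenium-binding protein, had 180, 162 and 162 reads in Control and 86, 48 and 68 in STZ. Scd, which encodes a stearoyl-CoA desaturase, had 245, 292 and 397 reads in Control and 169, 100 and 122 in STZ. Among the STZ samples, Ptpru, Selenbp1, Scd and B4galnt4 had their highest scaled value in replicate 1, and Scara5 and Adamts20 in replicate 2. The log2 fold changes of the 5 genes ran from -1.86 to -1.48. The likeness is a description over 6 samples in 2 groups.

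**Figure D4:**
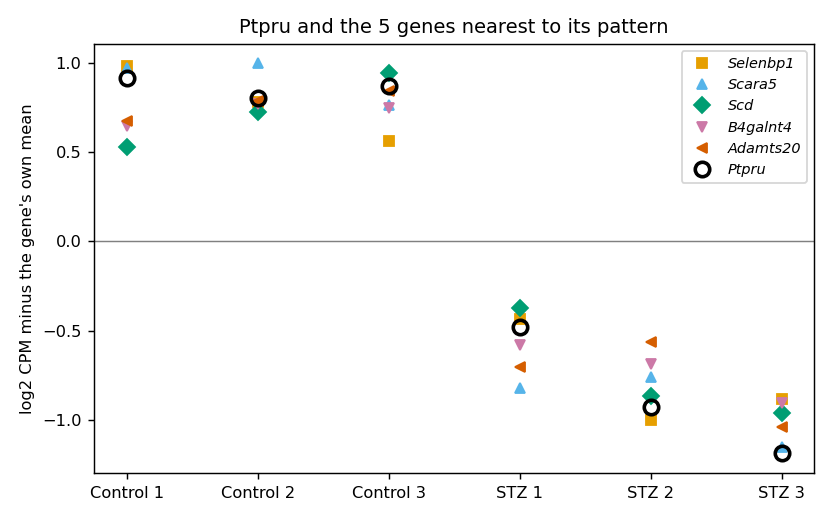
Log2 CPM minus the gene's own mean over the 6 samples (vertical axis) for Ptpru (open circles) and the 5 genes nearest to it, in each Control and STZ sample (horizontal axis). All 6 genes lie above 0.5 in the Control samples and below -0.3 in the STZ samples, and Ptpru is at -0.48, -0.93 and -1.19 in STZ replicates 1, 2 and 3.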

How the data were processed

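RNA of 3 Control and 3 STZ samples was sequenced by the authors as 100-bp single-end reads from stranded mRNA libraries. The authors mapped the reads to Rnor6 with STAR 2.7.10a and deposited the counts of uniquely mapped reads per gene from featureCounts, as raw counts without normalization. The strand setting and the annotation are not given in the sources used here, and 2871 rows carry only an identifier. Samples were assigned by their titles. With edgeR 4.0.16 in R 4.3.3, genes were filtered (filterByExpr), scaled (TMM) and tested by quasi-likelihood at default settings, and p-values were adjusted over the whole table (Benjamini-Hochberg). The standard error is the absolute log2 fold change over the square root of F, and 95% intervals are normal ones from that error. Adjusted p-values come from this fit across genes, since the smallest exact two-sided permutation p of 3 against 3 samples is 0.1.

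The members and gene lists were chosen with earlier results of these data known. Named are all members, the 2 genes with the smallest p called in each direction of each list, and the 5 genes nearest to Ptpru. Genes named outside this rule (Ptpn7, Ptpn11, Csk, Ptprr, Lrp2, Cubn, Slc34a1, Slc5a2, Slc2a2, Nphs1, Kdr and other genes that failed the filter) were chosen after their values were seen. Any pair of samples of a group always differed by more than sampling noise (chi-square per degree of freedom of at least 1.85). Whether same-numbered Control and STZ samples shared an origin is not given, and correlations between them are given with the alternatives. Alternatives were other filters, scalings and tests (DESeq2 1.42.0 and limma-voom 3.58.1 among them), a replicate block and each sample left out. The fit was tested on simulated counts of 11870 genes, and 197 of 200 changed genes were recovered. The simulation gave all genes the same dispersion and all changes the same size, so this recovery does not describe genes of wider spread.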

Additional observations from a re-analysis of the deposited data

How the results depend on the processing

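Each of the 9 members kept its direction under every alternative run, and 124 of 125 member values also kept their side of the threshold. The exception was Ptprg, called lower with library size only (-0.11), where the median of all genes was -0.04. The log2 fold change of Ptpru ran from -2.0 to -1.58, that of Ptpre from 2.16 to 2.49 and that of Ptprd from -0.52 to -0.40, each with the extremes among the fits that left out a sample. With at least 10 counts in every sample, Ptpre was not tested (1 Control sample had 9 reads), so 1 member passed both thresholds in place of 2, and 249 genes did so in place of 400. That filter tests fewer genes.

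Of the LAR-binding scaffolds, 1 in place of 2 was called higher with no filter, the upper quartile, library size only or DESeq2's Wald test, and 1 to 2 across the fits that dropped a sample. Among the Src list, 1 in place of 2 was called higher with DESeq2 and 1 to 2 with one sample left out, and Csk was called lower, 1 in place of 0, with the upper quartile, library size only and the replicate block, and 0 to 1 with one sample left out. When no filter was used, 3 other RPTPs in place of 2 were called higher, Ptprn being added. With one sample left out, 1 to 2 other RPTPs and 1 to 2 ligands were called higher, and 1 to 3 cadherin and catenin genes lower, with Cdh1 and Ctnnb1 both lost without STZ replicate 3. For these list counts the cause was not tested. Among other named genes, 22 of 405 refits lost a call and none reversed.

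Control and STZ samples of replicate numbers 1, 2 and 3 deviated from their group means with correlations of 0.0328, -0.0357 and 0.105 over 10347 genes. Neither these values nor the labels can tell whether same-numbered samples shared an origin. Under the replicate block, 398 genes passed both thresholds, and the members called were 3 higher and 3 lower. Depth limits the low genes: Ptpre in Control rests on 9 to 16 reads a sample, and 7 other RPTPs had too few reads to be tested.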
